A study of Mus musculus with 2 samples.

Results

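The genes described here are those of the interferon response together with the Irf and Stat transcription factors in the intestine of Apc-mutant mice with and without Setd2 in the epithelium. They were found by gene symbol alone: names that begin with Ifi, Oas or Isg, the numbered Irf, Gbp and Stat genes, the Irgm genes, and Mx1, Mx2, Rsad2, Usp18, Iigp1, Igtp, Zbp1, Dhx58, Ddx58, Ddx60 and Xaf1. This gave 82 of the 18919 genes in the deposited table. The name rule itself uses no expression value, but it was set with earlier results of these data known. Of the 82 genes, 73 reached 1 FPKM (fragments per kilobase of transcript, scaled to the mapped fragments of the library) in at least 1 library and are called measured. The name rule also takes in Isg20l2, a nucleolar exonuclease of ribosome production, and 3 IRF2-binding proteins, which are cofactors and not members of the IRF family.

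The Setd2 knockout mice carried APCmin and Setd2IEC-/-, so that Setd2, whose product places the H3K36me3 mark on transcribed genes, was deleted in intestinal epithelial cells and kept in other cells. The control mice carried APCmin alone, the Apc allele that predisposes mice to intestinal tumours and that both groups share. Both groups were on the C57BL/6 background, were 2 months old, received no treatment and were kept free of specific pathogens. Each group is 1 library made from the mixed intestinal RNA of 3 littermates, so no difference below has a replicate check and no p-value is given. The labels name neither the Cre line nor the part of the intestine.

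Interferons are secreted when cells sense viral nucleic acid or when lymphocytes are activated. Type I and type III interferons signal through JAK kinases to a complex of STAT proteins and IRF9, which binds the interferon-stimulated response element, and interferon-gamma signals through STAT dimers, which bind gamma-activated sequences. The induced proteins block viral entry, degrade or sequester viral RNA, attach the ubiquitin-like ISG15, or attack the vacuoles of intracellular pathogens. The intestinal epithelium is known for a tonic interferon-stimulated programme at its surface, to which type III interferon is a main input.

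The Setd2 knockout library held 8646358 expected counts and the control library 8809678. Setd2 was at 3.47 FPKM in the knockout pool and 6.87 FPKM in the control pool, a count ratio of 0.504 (95% counting interval 0.432 to 0.587). Epithelial markers were high in both pools, with Epcam at 771 FPKM in the knockout pool and 687 FPKM in the control pool. Transcripts of other tissues differed: all 8 exocrine pancreas markers were higher, with a sum of 2103 FPKM in the knockout pool and 50.5 FPKM in the control pool. The 4 measured erythroid markers and the 4 measured stomach markers were higher as well. Their part in the results was not tested. In RNA of whole intestine, fewer cells of a type and less RNA per cell cannot be told apart.

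A gene is called higher or lower when its log2 ratio of FPKM plus a pseudocount of 1, knockout over control, was at least 1 or at most -1, a 2-fold difference. Of the 73 measured genes, 4 were higher (5.48%) and 1 was lower (1.37%). Across all 13253 measured genes of the table, 2.78% were higher and 1.28% were lower. Among all genes past 2-fold, 68.5% were higher, or 79.1% when expected counts scaled to the library total (CPM) were used in place of FPKM. The higher members were Ifitm1, Ifitm2, Ifitm3 and Mx1, and the lower member was Oas1e. Both shares rest on few genes, and 3 of the 4 higher members are neighbours in 1 gene cluster.

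The members as a set sat where other genes did. Their median log2 ratio was 0.09, and that of all measured genes was 0.08. A ratio above 0 was found for 44 of the 73 members (60.3%), against 62.5% of all measured genes. The ratio of expected counts, scaled to the library totals, has an exact 95% interval that covers counting error only. This interval lay above 1 for 24 members (32.9%) and below 1 for 11 (15.1%), against 28.0% and 12.5% of all measured genes. The 5 called members therefore stand in a set of which 68 genes lay within 2-fold.

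**Figure D1:**
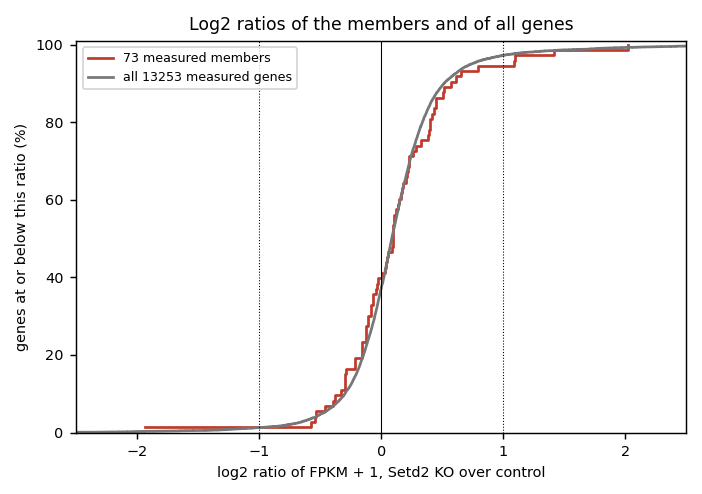
Cumulative share of genes (vertical axis, percent) at or below each log2 ratio of FPKM + 1, knockout over control (horizontal axis), for the 73 measured members in red and all 13253 measured genes in grey. Dotted lines mark 2-fold; the curves run close together around their medians of 0.09 and 0.08, and the members past the right dotted line are Ifitm1, Ifitm2, Ifitm3 and Mx1.

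**Figure D2:**
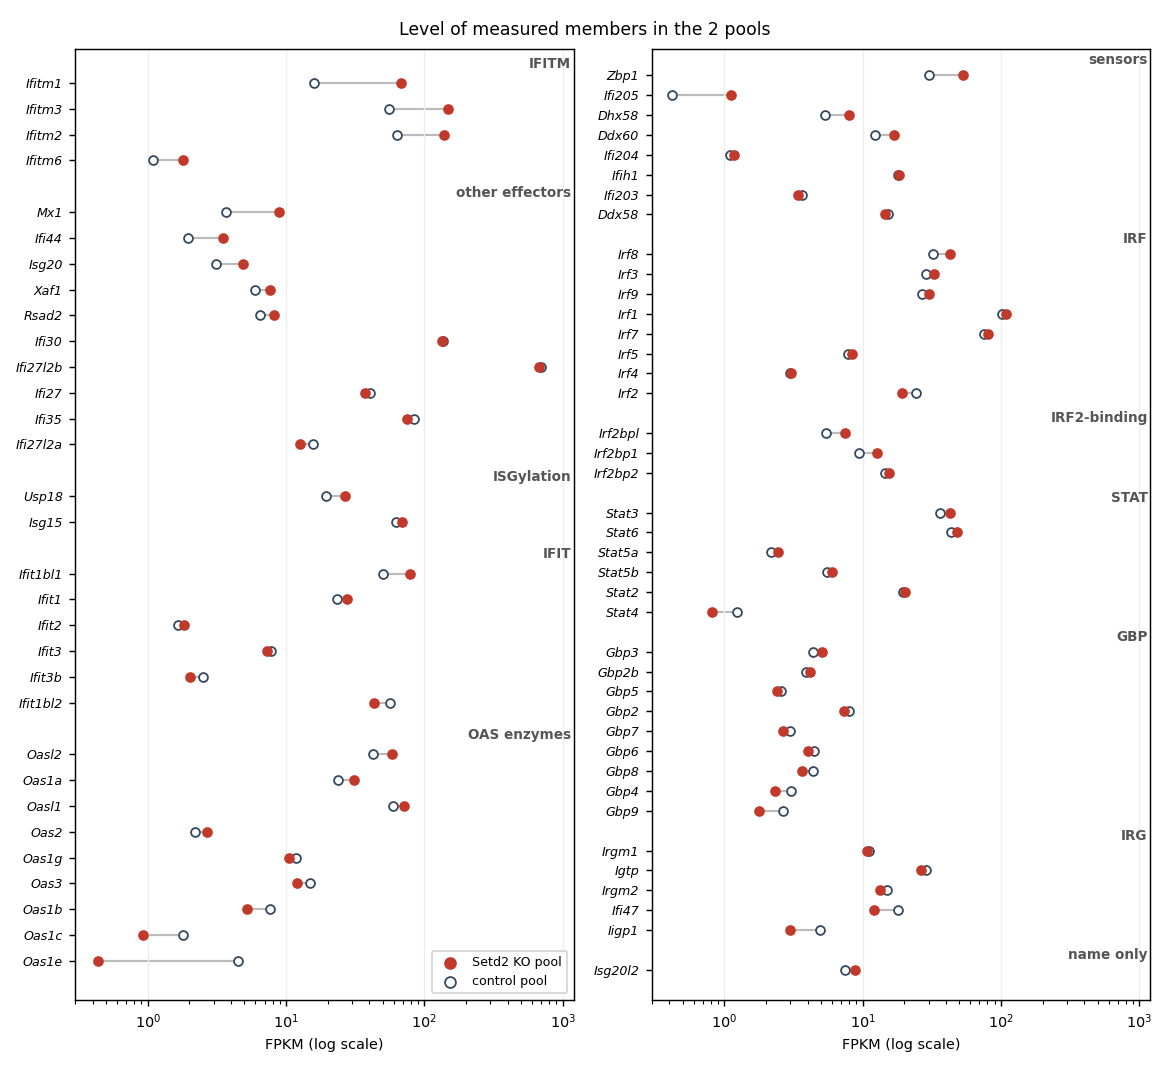
FPKM (log scale) of 71 measured members in the Setd2 knockout pool (filled red) and the control pool (open), grouped by role and ordered by log2 ratio, with 1 library per pool. The levels span Ifi27l2b at 676 and 692 FPKM to genes near 1 FPKM, and the widest gaps are those of Oas1e and Ifitm1.

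Interferon-induced transmembrane proteins, small membrane proteins that hinder the fusion of enveloped viruses with the cell, held the clearest difference of the set. Ifitm genes are also known as transcripts raised in intestinal tumours with active beta-catenin. Ifitm1 was at 67.3 FPKM in the knockout pool and 15.9 FPKM in the control pool, from 394 and 93.9 expected counts. Its count ratio was 4.27 (3.40 to 5.41), the highest log2 ratio of all members at 2.02. Ifitm3, the best known antiviral member, was at 148 FPKM in the knockout pool and 55.2 FPKM in the control pool, a count ratio of 2.69 (2.35 to 3.08). Ifitm2 was at 138 FPKM in the knockout pool and 63.9 FPKM in the control pool, a count ratio of 2.15 (1.89 to 2.45). All 3 genes were thus higher in the knockout pool, Ifitm1 by the largest factor and from the lowest control level.

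Expected counts of these 3 genes are not whole, since RSEM divided reads that fit more than 1 gene, and the single values are uncertain to that extent. Their sum was 353.5 FPKM in the knockout pool and 134.9 FPKM in the control pool, a count ratio of 2.64 (2.42 to 2.88). Ifitm1 made up 19.0% of that sum in the knockout pool and 11.8% in the control pool, and Ifitm3 made up 42.0% and 40.9%. By level, Ifitm3 and Ifitm2 ranked 2 and 3 among the measured members in the knockout pool, and 10 and 6 in the control pool. Ifitm6 was measured at 1.80 FPKM in the knockout pool and 1.10 FPKM in the control pool, from 8 and 5 counts, and its interval of 0.470 to 6.33 includes 1. Ifitm5, a bone protein, Ifitm7 and Ifitm10 stayed below 1 FPKM in both pools.

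Ifitm1, Ifitm2, Ifitm3, Ifitm5 and Ifitm6 lie side by side on chromosome 7 (GRCm38.p6, the assembly of mm10). Ifitm2 spans 140954837 to 140959686, Ifitm1 140967429 to 140969827 and Ifitm3 141009590 to 141010744. Of the 5 genes of the table on each side of that group, 8 were measured, and 0 of them were past 2-fold. Among all measured genes, 2.78% were higher and 1.28% lower, so 0 of 8 is near those shares. Their log2 ratios ran from -0.11 for Ano9, a membrane scramblase and channel protein, to 0.56 for B4galnt4, a glycosyltransferase, with a median of 0.19. The measured genes next to the 3 Ifitm genes thus had smaller differences, as most genes did.

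The promoters of these 3 genes, 250 bases before to 50 bases after a transcript start, are shown because the genes moved together, with that of Isg15 as an interferon-induced gene whose level was close between the pools. The sequences are from RefSeq on GRCm38.p6, written 5′ to 3′ on the strand of the gene: Ifitm1 at chr7:140967826-140968125 (+ strand), Ifitm2 at chr7:140955912-140956211 (- strand), Ifitm3 at chr7:141010695-141010994 (- strand) and Isg15 at chr4:156200769-156201068 (- strand). Capitals mark matches to the core of the interferon-stimulated response element (GAAA, any 2 bases, GAAA) on either strand, or to TTCNNNGAA, the gamma-activated sequence, whose pattern reads the same on both strands. Adjacent or overlapping matches run together.
Ifitm1: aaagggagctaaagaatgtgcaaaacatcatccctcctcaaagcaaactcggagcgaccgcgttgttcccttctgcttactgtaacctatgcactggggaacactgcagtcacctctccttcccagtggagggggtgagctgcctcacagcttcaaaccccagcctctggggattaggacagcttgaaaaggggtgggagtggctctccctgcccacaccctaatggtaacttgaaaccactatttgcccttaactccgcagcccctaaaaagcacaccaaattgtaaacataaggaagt
Ifitm2: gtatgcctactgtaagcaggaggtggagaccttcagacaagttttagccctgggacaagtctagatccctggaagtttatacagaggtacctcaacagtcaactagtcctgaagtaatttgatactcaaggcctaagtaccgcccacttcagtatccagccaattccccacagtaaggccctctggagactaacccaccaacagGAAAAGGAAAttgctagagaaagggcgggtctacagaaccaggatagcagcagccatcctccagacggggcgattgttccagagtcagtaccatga
Ifitm3: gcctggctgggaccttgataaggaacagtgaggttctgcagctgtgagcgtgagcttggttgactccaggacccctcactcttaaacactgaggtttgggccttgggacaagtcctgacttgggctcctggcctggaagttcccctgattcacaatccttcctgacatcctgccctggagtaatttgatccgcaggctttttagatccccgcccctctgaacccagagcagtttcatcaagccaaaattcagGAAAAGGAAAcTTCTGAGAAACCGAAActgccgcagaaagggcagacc
Isg15: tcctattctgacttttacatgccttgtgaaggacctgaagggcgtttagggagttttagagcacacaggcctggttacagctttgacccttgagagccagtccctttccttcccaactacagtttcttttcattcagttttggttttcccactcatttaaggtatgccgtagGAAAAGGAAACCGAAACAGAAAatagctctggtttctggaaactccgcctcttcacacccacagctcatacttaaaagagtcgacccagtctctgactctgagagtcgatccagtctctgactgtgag

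The Ifitm3 window has 2 response element matches, the first 2 bases and the second 19 bases after the annotated start, with 1 gamma-activated match overlapping the second. The Ifitm2 window has 1 response element match, whose first base lies 46 bases before the start. The Ifitm1 window has 0 matches to either motif, which says only that these letters are not in this window. Both the Ifitm1 and the Ifitm2 window lie inside the gene spans given above, so the outer 5′ ends of those spans were not searched. The Isg15 window has 3 overlapping response element matches, from 78 to 57 bases before the start. Ifitm1 had the highest ratio with 0 matches and Isg15 a log2 ratio of 0.13 with 3. These 4 genes were picked by their ratios, so no link of match number and ratio can be read from them.

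Markers of endothelium, a cell type that expresses Ifitm genes, had log2 ratios above 0 for all 4 genes, as had 62.5% of all measured genes. Counting intervals lay above 1 for 3 of the 4 (75%), against 28.0% of all measured genes. The sum of the 4 markers was 23.5 FPKM in the knockout pool and 16.5 FPKM in the control pool. Cdh5, the endothelial cadherin, was past 2-fold at 6.87 FPKM in the knockout pool and 2.89 FPKM in the control pool. Scaled by the median ratio, Cdh5 was within 2-fold. Tek, a vascular receptor, was at 1.78 and 1.51 FPKM in the knockout and control pools. The summed endothelial count ratio was 1.41 (1.27 to 1.57), and that of the Ifitm sum was 2.64. The 4 general leukocyte markers were below 0, as were 4931 of all 13253 measured genes. All 4 counting intervals lay below 1, against 12.5% of all measured genes. The leukocyte sum was 93.1 FPKM in the knockout pool and 129 FPKM in the control pool. Whether these cells account for part of the Ifitm difference was not tested.

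Mx1 encodes a dynamin-like GTPase that blocks influenza viruses, and the allele of most laboratory strains, C57BL/6 included, makes no functional protein. It was at 8.92 FPKM in the knockout pool and 3.66 FPKM in the control pool, from 218 and 90.5 expected counts, a count ratio of 2.47 (1.92 to 3.19). Mx2, its neighbour on chromosome 16, was at 0.97 FPKM in the knockout pool and 0.63 FPKM in the control pool, too low to be counted as measured. The sum of both genes had a count ratio of 2.33 (1.84 to 2.96).

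Other induced effectors differed by less. Ifi44, an induced cytoplasmic protein with antiviral activity, was at 3.52 FPKM in the knockout pool and 1.96 FPKM in the control pool, a count ratio of 1.78 (1.25 to 2.56). Rsad2, the radical SAM enzyme viperin, was at 8.15 FPKM in the knockout pool and 6.51 FPKM in the control pool, a ratio of 1.25 (1.04 to 1.503). Xaf1, an antagonist of the apoptosis inhibitor XIAP, was at 7.70 and 5.96 FPKM in the knockout and control pools, a ratio of 1.28 (1.02 to 1.61). These 3 intervals lay above 1, and that of Isg20, an exonuclease that degrades RNA, did not, at 4.86 FPKM in the knockout pool and 3.11 FPKM in the control pool (0.876 to 2.45).

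The most abundant effectors were close between the pools. Ifi27l2b, the highest of all members, was at 676 FPKM in the knockout pool and 692 FPKM in the control pool, from 6292 and 6571 counts, with an interval of 0.942 to 1.01. Ifi30, a lysosomal thiol reductase of antigen processing, was at 135 FPKM in the knockout pool and 137 FPKM in the control pool. Ifi35 was at 74.9 FPKM in the knockout pool and 83.9 FPKM in the control pool, with an interval just below 1 (0.814 to 0.978). Ifi27 and Ifi27l2a were at 37.0 and 12.6 FPKM in the knockout pool, against 40.4 and 15.6 FPKM in the control pool, with intervals that include 1. Of the 10 measured effectors, 5 had a log2 ratio above 0 and 5 below.

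ISG15 is a ubiquitin-like protein attached to other proteins, and USP18 removes it and also dampens the type I receptor. Isg15 was at 68.4 FPKM in the knockout pool and 62.2 FPKM in the control pool, and its count ratio of 1.10 has an interval of 0.958 to 1.26. Usp18 was at 26.9 FPKM in the knockout pool and 19.5 FPKM in the control pool, a ratio of 1.38 (1.19 to 1.61). The interval lay above 1 for Usp18 and included 1 for Isg15.

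**Figure D3:**
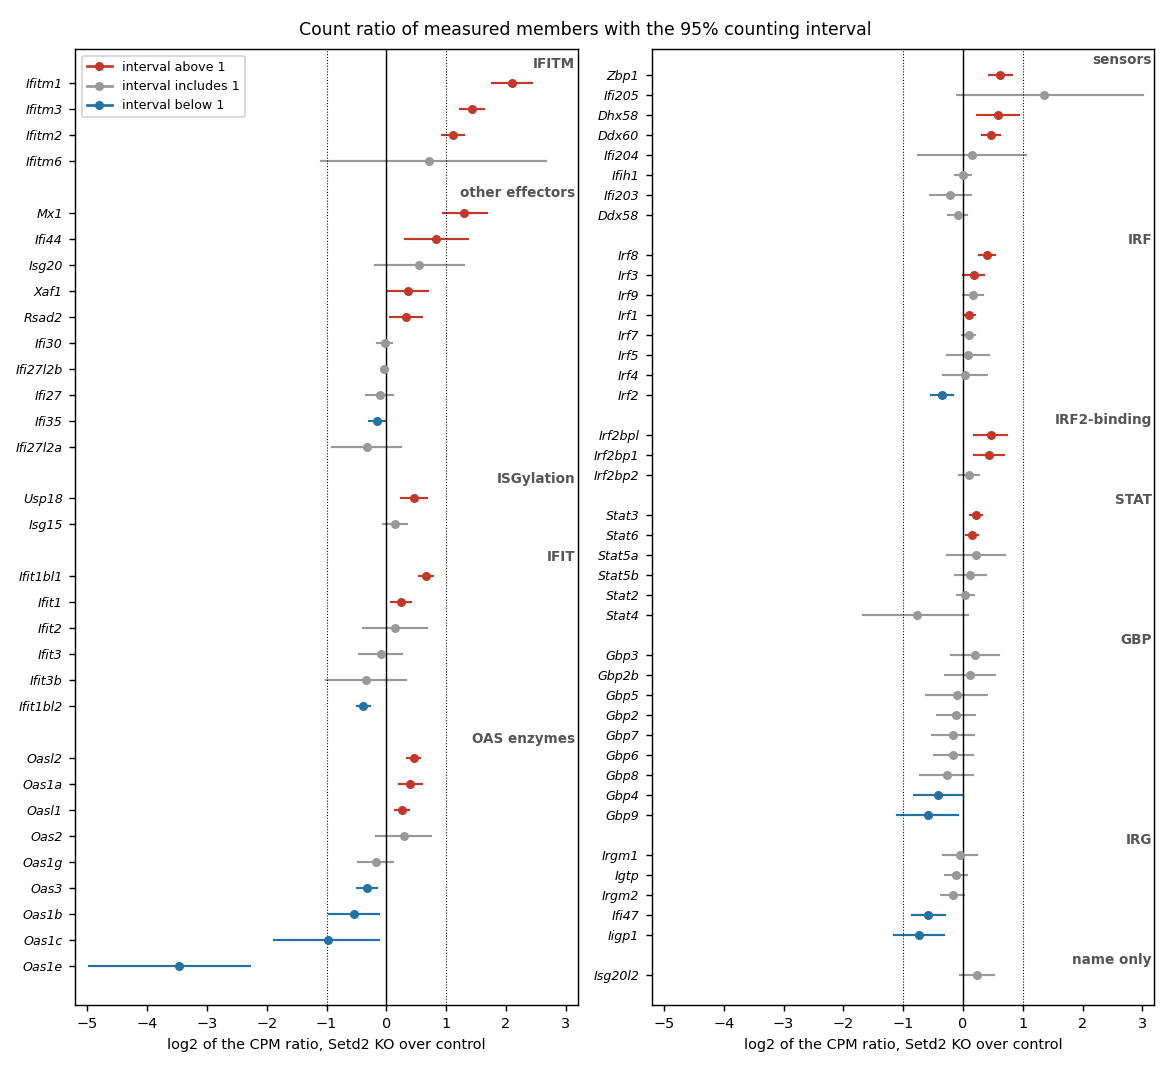
Log2 of the CPM ratio, knockout over control (horizontal axis), of 71 measured members, each with its exact 95% counting interval, grouped by role. Red intervals lie above a ratio of 1 (23 of those shown), blue below (11) and grey include it (37); dotted lines mark 2-fold, and the intervals hold no variation between mice.

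IFIT proteins bind viral RNA with foreign ends, and their genes form a cluster on chromosome 19. Ifit1bl1, the most abundant in the knockout pool, was at 79.2 FPKM there and 50.1 FPKM in the control pool, a count ratio of 1.58 (1.46 to 1.72). Its paralog Ifit1bl2 went the other way, at 43.0 FPKM in the knockout pool and 56.3 FPKM in the control pool, a ratio of 0.764 (0.710 to 0.822). Both have counts that are not whole, and their summed count ratio was 1.07 (1.01 to 1.13), so the opposite directions of the single genes nearly cancelled. Ifit1 was at 27.8 FPKM in the knockout pool and 23.5 FPKM in the control pool, a ratio of 1.18 (1.05 to 1.33). Ifit2, Ifit3 and Ifit3b were at 1.83, 7.34 and 2.03 FPKM in the knockout pool, against 1.65, 7.83 and 2.52 FPKM in the control pool, with intervals that include 1. For the 6 genes together the count ratio was 1.08 (1.03 to 1.13).

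Oligoadenylate synthetases make the second messenger that activates RNase L, which cuts RNA, and the OAS-like proteins assist RNA sensing or restrain translation. Oasl2, Oas1a and Oasl1 were at 58.6, 31.2 and 71.3 FPKM in the knockout pool, against 42.6, 23.6 and 59.5 FPKM in the control pool. Their count ratios were 1.37 (1.27 to 1.48), 1.32 (1.15 to 1.51) and 1.198 (1.11 to 1.30). Of the 9 measured genes of the family, intervals lay above 1 for these 3 (33.3%) and below 1 for 4 (44.4%). Among all measured genes the shares were 28.0% and 12.5%.

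Oas1e was the lowest of all measured members, at 0.44 FPKM in the knockout pool and 4.50 FPKM in the control pool. It counts as measured through the control pool alone. It had 6.49 and 67.8 expected counts, a count ratio of 0.0899 (0.0319 to 0.206) and a log2 ratio of -1.93. Oas1c, its neighbour, was at 0.93 FPKM in the knockout pool and 1.79 FPKM in the control pool, from 18.4 and 36.2 counts (0.272 to 0.921). Oas1b, the flavivirus resistance gene, which is truncated in C57BL/6, was at 5.23 FPKM in the knockout pool and 7.60 FPKM in the control pool, a ratio of 0.690 (0.517 to 0.918). Oas3 was at 11.96 FPKM in the knockout pool and 14.94 FPKM in the control pool, a ratio of 0.7999 (0.709 to 0.901). Oas1g and Oas2 had intervals that include 1.

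Expected counts of Oas1e and most other Oas1 genes are not whole, so the single values are uncertain, and how the division of reads bears on Oas1e was not tested. Summed over Oas1a to Oas1h on chromosome 5 (120786312 to 120921648), the level was 48.9 FPKM in the knockout pool and 49.8 FPKM in the control pool, a count ratio of 0.981 (0.890 to 1.08). Oas1e made up 0.901% of that sum in the knockout pool and 9.04% in the control pool. Oas1c and Oas1e had the lowest log2 ratios of the oligoadenylate synthetases, so their summed count ratio of 0.245 (0.152 to 0.382) is low by that choice. Of the 5 genes on each side of the Oas locus, 7 were measured and 0 were past 2-fold, with log2 ratios from -0.16 to 0.43. That 0 is near the shares of all measured genes, 2.78% higher and 1.28% lower.

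The sensors that detect foreign nucleic acid lie upstream of interferon and are also induced by it. Zbp1, a receptor of Z-form nucleic acid that can trigger necroptosis, had the highest level and log2 ratio of them, at 52.8 FPKM in the knockout pool and 30.1 FPKM in the control pool. The count ratio was 1.54 (1.35 to 1.76) and the FPKM ratio 1.75, since the mean transcript length that RSEM assigned was 1225 bases in the knockout pool and 1390 bases in the control pool. Dhx58, which encodes the regulator LGP2, was at 7.98 FPKM in the knockout pool and 5.31 FPKM in the control pool (1.18 to 1.92). Ddx60, a helicase linked to RIG-I, was at 17 FPKM in the knockout pool and 12.3 FPKM in the control pool (1.25 to 1.53).

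The main RNA receptors did not share that direction. Ddx58, which encodes RIG-I, was at 14.4 FPKM in the knockout pool and 15.4 FPKM in the control pool (0.842 to 1.05), and Ifih1, which encodes MDA5, was at 18.2 FPKM in both (0.912 to 1.10). The DNA-binding relatives Ifi203 and Ifi204 were at 3.42 and 1.18 FPKM in the knockout pool, against 3.64 and 1.10 FPKM in the control pool. Ifi205 was at 1.11 FPKM in the knockout pool and 0.42 FPKM in the control pool, from 15.5 and 5.89 counts, and its wide interval of 0.934 to 8.01 includes 1. It counts as measured through the knockout pool alone, and it was past 2-fold with a pseudocount of 0.1 FPKM.

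IRF transcription factors carry the response, and all 9 were measured with 0 past 2-fold. Irf1, a main target and mediator of interferon-gamma, was the most abundant at 109.6 FPKM in the knockout pool and 102 FPKM in the control pool (1.01 to 1.15). Irf8, a factor of myeloid and B cells, had the highest ratio, at 42.8 FPKM in the knockout pool and 32.2 FPKM in the control pool, 1.33 (1.21 to 1.45). Irf3, which RNA sensors activate, was at 32.6 and 28.7 FPKM in the knockout and control pools (1.004 to 1.275). Irf2, a factor that competes with Irf1, had an interval below 1, at 19.2 FPKM in the knockout pool and 24.4 FPKM in the control pool, a ratio of 0.786 (0.689 to 0.895).

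Irf7 and Irf9 complete the type I arm. Irf7, the amplifier of type I interferon, was at 81.3 FPKM in the knockout pool and 76.1 FPKM in the control pool, and Irf9 was at 30.2 FPKM in the knockout pool and 26.9 FPKM in the control pool. Irf4 and Irf5 were at 3.05 and 8.40 FPKM in the knockout pool, against 2.97 and 7.84 FPKM in the control pool. All of these intervals include 1. Beside Irf8 and Irf4, the 5 B cell markers were below 0, with Ms4a1 at 0.90 FPKM in the knockout pool and 5.73 FPKM in the control pool. Among them 2 were past 2-fold lower (40%) and 4 intervals lay below 1 (80%), against 1.28% and 12.5% of all measured genes. Of the 5 measured dendritic cell markers, 1 was above 0 and 3 were below, and all 5 intervals include 1. The 8 macrophage markers were above 0, from 0.08 to 0.44 (log2 ratio), as were 62.5% of all measured genes. Macrophage intervals lay above 1 for 2 genes (25.0%) and included 1 for 6, against 28.0% above 1 for all measured genes. The 4 measured plasma cell markers, of cells that also express Irf4, were above 0 too, with a median log2 ratio of 0.39 and a sum of 826 FPKM in the knockout pool and 669 FPKM in the control pool. The part of these cells in the Irf values was not tested. Of the IRF2-binding proteins, Irf2bp1 and Irf2bpl were at 12.8 and 7.49 FPKM in the knockout pool, against 9.47 and 5.44 FPKM in the control pool, with intervals above 1. Irf2bp2 was at 15.5 FPKM in the knockout pool and 14.5 FPKM in the control pool.

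The 7 measured STAT factors had 0 members past 2-fold. Stat2, a mediator of type I and type III interferon signalling, was at 20.3 FPKM in the knockout pool and 19.8 FPKM in the control pool, with a count ratio of 1.03 and an interval that includes 1 (0.930 to 1.14). Stat3, which relays interleukin-6 and interleukin-22, was at 42.6 FPKM in the knockout pool and 36.6 FPKM in the control pool (1.09 to 1.25). Stat6, the mediator of interleukin-4 and interleukin-13, was the most abundant at 47.9 FPKM in the knockout pool and 43.3 FPKM in the control pool (1.03 to 1.19). Stat5a and Stat5b were at 2.45 and 6.04 FPKM in the knockout pool, against 2.17 and 5.54 FPKM in the control pool. Stat4, a factor of T and natural killer cells, was at 0.82 FPKM in the knockout pool and 1.24 FPKM in the control pool, from 19 and 33 counts (0.315 to 1.06).

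Guanylate-binding proteins are large GTPases that interferon-gamma induces strongly and that lyse pathogen vacuoles. Of the 9 measured, 7 had a log2 ratio below 0, against 4931 of all 13253 measured genes. The median was -0.13, against 0.08 for all genes. Intervals lay below 1 for 2 (22.2%) and above 1 for 0, against 12.5% and 28.0% of all measured genes. Gbp9 was at 1.78 FPKM in the knockout pool and 2.66 FPKM in the control pool, a ratio of 0.663 (0.465 to 0.940), and Gbp4 was at 2.31 FPKM in the knockout pool and 3.06 FPKM in the control pool (0.566 to 0.9951). Gbp2, the most abundant, was at 7.36 FPKM in the knockout pool and 8.01 FPKM in the control pool (0.737 to 1.15). Gbp3 and Gbp2b were above 0, at 5.07 and 4.20 FPKM in the knockout pool, against 4.40 and 3.88 FPKM in the control pool. With an FPKM of 5 or more required, 2 of these genes were left and the median turned to 0.03.

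The Gbp genes form clusters on chromosomes 3 and 5, and reads are shared within them. The 5 genes of chromosome 3 had a summed count ratio of 0.979 (0.871 to 1.10). The 6 genes of chromosome 5 had 0.7997 (0.698 to 0.916), from 383 and 488 counts in the knockout and control pools. Gbp10 and Gbp11 were below 1 FPKM in both pools.

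Immunity-related GTPases, induced by interferon-gamma in mice, mark and disrupt pathogen vacuoles, with the Irgm proteins as regulators. All 5 were measured and all 5 had log2 ratios below 0, also under the other scalings. Among all 13253 measured genes, 4931 were below 0. The median was -0.16, against 0.08 for all measured genes. Iigp1 was at 2.97 FPKM in the knockout pool and 4.93 FPKM in the control pool, a count ratio of 0.603 (0.449 to 0.806). Ifi47 was at 12.02 FPKM in the knockout pool and 17.95 FPKM in the control pool, a ratio of 0.668 (0.551 to 0.809). Igtp, the most abundant, was at 26.6 FPKM in the knockout pool and 28.8 FPKM in the control pool, and Irgm1 and Irgm2 were at 10.7 and 13.4 FPKM in the knockout pool, against 11.1 and 15.0 FPKM in the control pool. These last 3 had intervals that include 1, so 2 of 5 (40%) lay below 1, against 12.5% of all measured genes. The summed count ratio of the 5 genes was 0.850 (0.790 to 0.914), and 0 were past 2-fold.

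T cell markers, from the cells that release interferon-gamma, were at a sum of 40.6 FPKM in the knockout pool and 42.7 FPKM in the control pool. Of the 7 markers 5 were below 0, and all 7 counting intervals include 1. Cytotoxic and natural killer markers were at a sum of 285.1 FPKM in the knockout pool and 236 FPKM in the control pool. Of 5 measured, 3 (60%) were above 0, against 62.5% of all measured genes. Their part in the GTPase values was not tested.

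The 9 members that were not measured stayed at or under 0.97 FPKM in both pools, with at most 20.5 counts, and Oas1f was at 0 in both. Among the measured members, 1 (Ifi205) passed the level of 1 FPKM through the knockout pool alone and 3 (Oas1c, Oas1e and Stat4) through the control pool alone. Isg20l2 was at 8.79 FPKM in the knockout pool and 7.48 FPKM in the control pool (0.962 to 1.43).

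Response element matches were common in these promoters. The RefSeq table held a promoter for 60 of the 82 members, and 29 of these (48.3%) had a match to the response element core, against 3.99% of the 27025 genes with a promoter. A match to TTCNNNGAA was found for 14 (23.3%), against 9.55%. Of the 44 response element matches, 38 began within 150 bases before the start or after it. The match is a description of letters and not of binding.

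Among members with a promoter, those with a response element match did not have higher ratios. The called members Mx1 and Oas1e had no promoter and are in neither set. The 29 measured members with a match had a median log2 ratio of -0.07, from -0.53 to 1.41, with 2 higher and 0 lower. The 26 without one had a median of 0.17, from -0.54 to 2.02, with 1 higher and 0 lower. Of all 405 measured genes with a match, 10 were higher and 4 lower, and their median was 0.07. Of the 10003 without one, 213 were higher and 70 lower, and their median was 0.09. The set with a match includes the Gbp genes of chromosome 3 and 3 of the GTPases, and the set without includes most Irf and Stat genes.

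**Figure D4:**
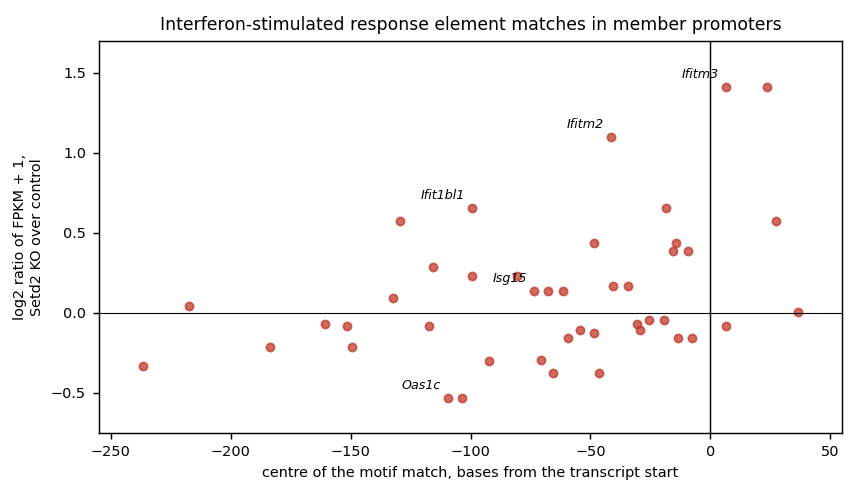
Centre of each match to the response element core in a member promoter, in bases from the transcript start (horizontal axis), against the log2 ratio of FPKM + 1 of the gene (vertical axis, knockout over control), for measured members. Genes with several matches appear several times, and most points lie within 150 bases before the start. Of the genes shown, Ifitm2 and Ifitm3 alone are above a log2 ratio of 1. Mx1 had no promoter and is not shown.

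Other genes of the pathway were counted by their roles. Of the interferon genes searched, 2 were in the table, Ifng at 0 FPKM in the knockout pool and 0.09 FPKM in the control pool, and Ifnz at 0 and 0.02 FPKM, so no ligand was measured. All 6 receptor chains were measured, with 0 past 2-fold and a median log2 ratio of -0.08. Ifngr2, of the interferon-gamma receptor, was the most abundant at 101.4 FPKM in the knockout pool and 107.2 FPKM in the control pool. Ifnlr1, the chain particular to type III interferon, had the lowest ratio at 8.85 FPKM in the knockout pool and 10.0 FPKM in the control pool (0.755 to 1.03), followed by Il10rb at 72.4 and 78.7 FPKM in the knockout and control pools. Ifnar1 and Ifngr1 were above 0, at 15.0 and 62.0 FPKM in the knockout pool, against 13.6 and 59.2 FPKM in the control pool.

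Of the 4 JAK kinases, Jak2, which serves the interferon-gamma receptor, was the most abundant and the lowest, at 35.7 FPKM in the knockout pool and 51.3 FPKM in the control pool, a count ratio of 0.697 (0.653 to 0.743). Tyk2 and Jak1 were at 11.1 and 28.9 FPKM in the knockout pool, against 12.2 and 31.2 FPKM in the control pool, and Jak3 was at 6.32 FPKM in the knockout pool and 5.72 FPKM in the control pool. Among 11 inhibitors of JAK and STAT signalling, 0 were past 2-fold. The STAT5 targets Cish and Socs2 were the lowest, at 5.18 and 8.73 FPKM in the knockout pool, against 8.26 and 12.9 FPKM in the control pool. Pias4 and Socs3 were the highest, at 17.1 and 19.5 FPKM in the knockout pool, against 13.5 and 16.3 FPKM in the control pool. Ptpn6, a phosphatase of blood and epithelial cells and the most abundant of them, was at 23.7 FPKM in the knockout pool and 25.1 FPKM in the control pool.

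Of 12 measured genes of nucleic acid sensing, 0 were past 2-fold and the median was -0.03. Tmem173, which encodes STING, and Aim2, an inflammasome sensor, had the highest ratios, at 5.37 and 3.39 FPKM in the knockout pool, against 3.79 and 2.37 FPKM in the control pool. Traf3 and the kinase gene Ikbke had the lowest, at 4.09 and 10.8 FPKM in the knockout pool, against 4.95 and 12.7 FPKM in the control pool. Trim25, the ligase that activates RIG-I and the most abundant, was at 39.2 FPKM in the knockout pool and 44.6 FPKM in the control pool.

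A list of further interferon-induced genes had 55 measured members with 0 higher and 2 lower (3.64%), against 2.78% higher and 1.28% lower among all measured genes. Its median log2 ratio was -0.01, against 0.08 for all measured genes. Intervals lay above 1 for 18 genes (32.7%) and below 1 for 17 (30.9%), against 28.0% and 12.5% of all measured genes. Ido1, which degrades tryptophan and is induced by interferon-gamma, was at 8.03 FPKM in the knockout pool and 20.6 FPKM in the control pool, a count ratio of 0.392 (0.310 to 0.493). Tgtp1, a GTPase of the same kind as Iigp1, was at 1.24 FPKM in the knockout pool and 4.03 FPKM in the control pool, a ratio of 0.306 (0.196 to 0.464). Its near-identical neighbour Tgtp2, chosen after its values were seen, was at 4.89 FPKM in the knockout pool and 5.01 FPKM in the control pool, and reads that fit both leave each uncertain. Ly6e and Rtp4 had the highest ratios, at 95.8 and 20.02 FPKM in the knockout pool, against 65.1 and 14.4 FPKM in the control pool, and B2m, the light chain of class I molecules, was the most abundant at 2126 FPKM in the knockout pool and 2133 FPKM in the control pool.

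**Figure D5:**
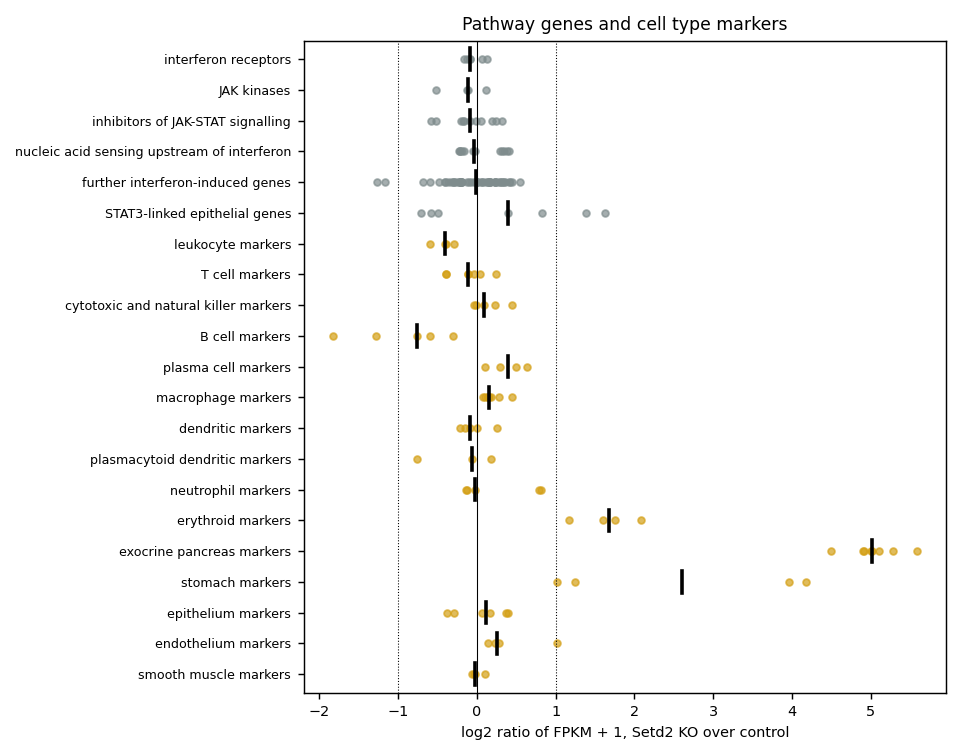
Log2 ratios of FPKM + 1, knockout over control (horizontal axis), of measured genes in pathway lists (grey) and cell type marker lists (yellow), 1 point per gene with the median as a bar. The interferon pathway lists centre near 0, with medians from -0.12 for the JAK kinases to -0.01 for further induced genes, while exocrine pancreas, stomach and erythroid markers lie above 1.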

How the data were processed

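RNA of the intestine was sequenced in 1 pooled library per genotype. Per the labels and the submitters' processing notes, reads were mapped to mm10 with BWA or Bowtie2 and quantified with RSEM, whose versions are not given in the sources used here. The deposited sample files hold, per the file headers, expected counts and transcript lengths for each gene, and FPKM as computed by the authors, with 2 decimals and no value listed below 0.01. A deposited table of both libraries repeats these FPKM and puts 0 for a gene that a library lacks. Strandedness is not given, so reads of overlapping antisense genes cannot be told apart.

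From these values the log2 ratio of FPKM + 1 was computed for the 13253 genes that reached 1 FPKM in either library, and the ratio of expected counts scaled to library totals (CPM, counts rounded to whole numbers first) with an exact 95% Clopper-Pearson interval (SciPy 1.17.1). Intervals and the floor of 3 counts (0.347 CPM in the knockout library, 0.341 CPM in the control library) cover counting error only. No test between groups was possible, and no p-value was computed. The calls and intervals were tested on simulated data that held counting error alone, without variation between mice or reads divided between genes. Positions of all 82 genes and promoter sequences came from RefSeq tables of GRCm38.p6, matched by gene identifier; 67 of the 75 promoter windows of members matched a transcript start in the sense direction and 0 in the reverse.

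The members, gene lists and motifs were chosen with earlier results of these data known. All members could be named; of other lists, the 2 highest, the 2 lowest and the most abundant gene. Alternatives tried were other pseudocounts, filters, scalings and a threshold of 1.5-fold. Single values of 2 measured members are not reported here; counts and sums over groups include them.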

Additional observations from a re-analysis of the deposited data

How the results depend on the processing

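No paired analysis was possible because each genotype has 1 library, and no library could be left out. Ifitm1, Ifitm2, Ifitm3 and Mx1 were past the threshold under each of the 10 alternatives. Members called higher came to 7 of 73 with a threshold of 1.5-fold (Ifi44, Ifit1bl1 and Zbp1 added), against 8.01% of all measured genes. They came to 5 of 73 with a pseudocount of 0.1 or 0.01 FPKM (Ifi205 added), against 5.27% and 5.72% of all genes. Members lower came to 0 when an FPKM of 5 was required, which leaves out Oas1e by construction; the log2 ratio of Oas1e was -3.33 with a pseudocount of 0.01 FPKM. Counts of all genes higher and lower were 699 and 282 with a pseudocount of 0.1 FPKM, 758 and 301 with 0.01 FPKM, 191 and 84 with a filter of FPKM 5, 1062 and 459 with a threshold of 1.5-fold, and 216 and 80 with at least 50 expected counts, an alternative chosen after seeing the data. With FPKM rescaled to TPM, 613 genes were higher. Over the settings tried the median log2 ratio of the members ran from 0.01 to 0.13. Scaling by the median ratio moved the median of the interferon receptors from -0.08 to -0.16. The same scaling moved the median of all measured genes from 0.08 to 0.01. Stat2, Irf4 and Ifih1 changed the sign of their small ratios between settings. Medians of the IFIT genes, the oligoadenylate synthetases, the other effectors, the guanylate-binding proteins and the further induced genes also changed sign between settings, while those of the immunity-related GTPases stayed between -0.24 and -0.14. Counting intervals of genes with few counts are wide, as for Ifi205 and Ifitm6.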

Other observations

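Stat3 lies outside the type I interferon arm, and genes of the gut epithelium known to respond to it were counted as a list of their own. Of 7 measured, 2 were past 2-fold higher (28.6%) and 0 lower, against 2.78% and 1.28% of all measured genes. Counting intervals lay above 1 for 4 (57.1%) and below 1 for 3 (42.9%), against 28.0% and 12.5%. With a pseudocount of 0.1 or 0.01 FPKM, or with CPM, 1 gene was lower. Fut2, which fucosylates the epithelial surface, was at 8.69 FPKM in the knockout pool and 2.13 FPKM in the control pool, a count ratio of 4.11 (3.06 to 5.61). Reg3b, a lectin that kills bacteria, had the highest level of the list and was at 5469 FPKM in the knockout pool and 2088 FPKM in the control pool. Nos2, the inducible nitric oxide synthase, and Duox2, an oxidase that makes hydrogen peroxide, had the lowest ratios, at 0.51 and 12.9 FPKM in the knockout pool, against 1.47 and 19.8 FPKM in the control pool. The list median was 0.40 and ran from -0.04 to 0.61 over the alternatives. The list holds genes with opposite directions, and Reg3b is also abundant in pancreas, whose markers were higher in the knockout pool; its part in the value was not tested.

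Divided by mean level, the 23 members below 5 FPKM had a median log2 ratio of -0.07, against 0.13 for all genes at that level. The 11 members at 50 FPKM or more had 0.13, against 0.02 for all genes. These are descriptions of 2 libraries, and the bins hold different families.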
